A study of Mus musculus with 12 samples.

Results

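Cxcl9 and Cxcl10 encode chemokine ligands of the receptor CXCR3. They were taken as the rows of the deposited count table whose Ensembl identifier carries the symbol Cxcl9 or Cxcl10 in the mouse GENCODE annotation, which gave 2 of 57009 gene rows. The 12 libraries, 3 in each of 4 groups, hold RNA of dendritic cells (DCs) from mouse spleen after 3 hours of culture. In the AlloTem group, DCs of C57BL/6 (B6) mice shared the culture with BALB/c-derived memory T cells that were specific for alloantigen. In the SynTem group the T cells were effector memory cells of the same strain, B6. In the LPS group the DCs were kept with the bacterial product LPS, and in the DC only group alone. The strain of the T cells and their specificity for alloantigen cannot be told apart in this design. In every group the DC donors had been injected with B16 melanoma cells secreting the DC growth factor Flt3 ligand, so all DCs came from spleens of tumour-bearing mice. T, B and NK cells and macrophages were depleted with beads before culture, and DCs were sorted by CD11b and CD11c after it. The sources used here do not give the animals' age, the LPS dose or the number of animals behind a library. They do not say that replicates came from separate animals or cultures, so the p-values measure the spread between these libraries only. DC only 1 and DC only 2 were more alike in their counts (Spearman correlation 0.9915) than any other pair within a group (0.9648 to 0.9799). For DC only, n = 3 may therefore overstate the replication.

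CXCR3 is carried by activated and memory T cells of the Th1 type, by many CD8 T cells and by NK cells. Its ligands draw these cells towards the cells that secrete them, and DCs in lymphoid tissue are among the known sources. Cxcl9 is known as a target of interferon gamma. Cxcl10 responds to interferon gamma and also to type I interferon and to signals through NF-kB and IRF3, such as those from the LPS receptor TLR4. In bulk RNA, fewer cells that express a ligand and less ligand RNA per cell cannot be told apart.

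Both genes lie on the minus strand of mouse chromosome 5 (GRCm38), next to the third ligand gene, Cxcl11. Cxcl9 (ENSMUSG00000029417) spans chr5:92321347-92328079, and its annotated exons cover 3016 bases in 4 blocks. Cxcl10 (ENSMUSG00000034855) spans chr5:92346638-92348889 with 18558 bases between it and Cxcl9. Its annotated exons cover all 2252 bases of the gene, of which 133 (5.906%) are also exons of Art3, a gene on the plus strand. Whether the counting used strand is not given in the sources used here, so reads of Art3 in those bases could not be separated. Cxcl11 (ENSMUSG00000060183) lies a further 10654 bases on, at chr5:92359544-92365485.

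The 250 bases before each gene's start are printed because they are the windows next to the start in which the letters of interferon and NF-kB elements can be read. They come from RefSeq (GRCm38.p6) and run 5′ to 3′ along the minus strand, chr5:92328080-92328329 for Cxcl9 and chr5:92348890-92349139 for Cxcl10. Capitals mark matches on either strand to the interferon-stimulated response element (ISRE, read as GAAA, any 2 bases, GAAA) and to the NF-kB element (GGG, any 2 or 3 bases, TTCC).
Cxcl9: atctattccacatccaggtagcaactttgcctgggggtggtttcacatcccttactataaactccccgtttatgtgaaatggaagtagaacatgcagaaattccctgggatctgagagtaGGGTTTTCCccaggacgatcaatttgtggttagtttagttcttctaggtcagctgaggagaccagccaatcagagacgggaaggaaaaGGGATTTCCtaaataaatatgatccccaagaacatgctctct
Cxcl10: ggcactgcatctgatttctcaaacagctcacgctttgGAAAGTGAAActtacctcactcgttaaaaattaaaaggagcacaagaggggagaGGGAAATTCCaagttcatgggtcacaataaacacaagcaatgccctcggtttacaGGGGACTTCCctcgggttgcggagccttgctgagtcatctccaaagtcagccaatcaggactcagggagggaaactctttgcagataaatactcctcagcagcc

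The Cxcl9 window held 2 matches to the NF-kB letters, GGGTTTTCC at -130 to -122 and GGGATTTCC at -42 to -34, counted from the start. The Cxcl10 window held an ISRE match, GAAAGTGAAA at -213 to -204, and NF-kB matches GGGAAATTCC at -159 to -150 and GGGGACTTCC at -104 to -95. The last of these contains a 9-letter match, GGGACTTCC, that overlaps it. The ISRE letters were not found in the Cxcl9 window, and the letters of the gamma-activated site (GAS, TTCNNNGAA) were found in neither. Of 32817 RefSeq promoter windows of the same length, 2.97% held the ISRE letters, 7.01% the GAS letters and 8.25% the NF-kB letters. These are matches of letters, not measurements of binding, and elements that depart from these letters would not be found.

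Levels are given in CPM, the count of a gene relative to the library's total after scaling by the TMM method, which sets the libraries on a common scale. Cxcl9 stood at 59.2, 553 and 48.4 CPM in AlloTem libraries 1, 2 and 3, at 47.9, 19.4 and 517 CPM in the SynTem libraries, at 18.8, 70.9 and 21.4 CPM in the LPS libraries, and at 38.1, 35.5 and 5.0 CPM in the DC only libraries. AlloTem 2 and SynTem 3 stood far above the other 10 libraries, and DC only 3 stood lowest. The AlloTem and DC only libraries did not overlap, while the groups of every other pair did.

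Cxcl10 stood at 162, 595 and 74.8 CPM in the AlloTem libraries, at 168, 28.4 and 1422 CPM in the SynTem libraries, at 96.9, 114 and 49.96 CPM in the LPS libraries, and at 100.02, 105 and 7.59 CPM in the DC only libraries. The same pair of libraries, SynTem 3 and AlloTem 2, were the highest and DC only 3 the lowest, and the groups of all 6 pairs overlapped. The level in DC only 3 rests on 155 reads of Cxcl10 and 102 reads of Cxcl9. SynTem 3 held 23988 reads of Cxcl10, and AlloTem 2 held 11152 reads of Cxcl9, so no member value rests on few reads.

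**Figure D1:**
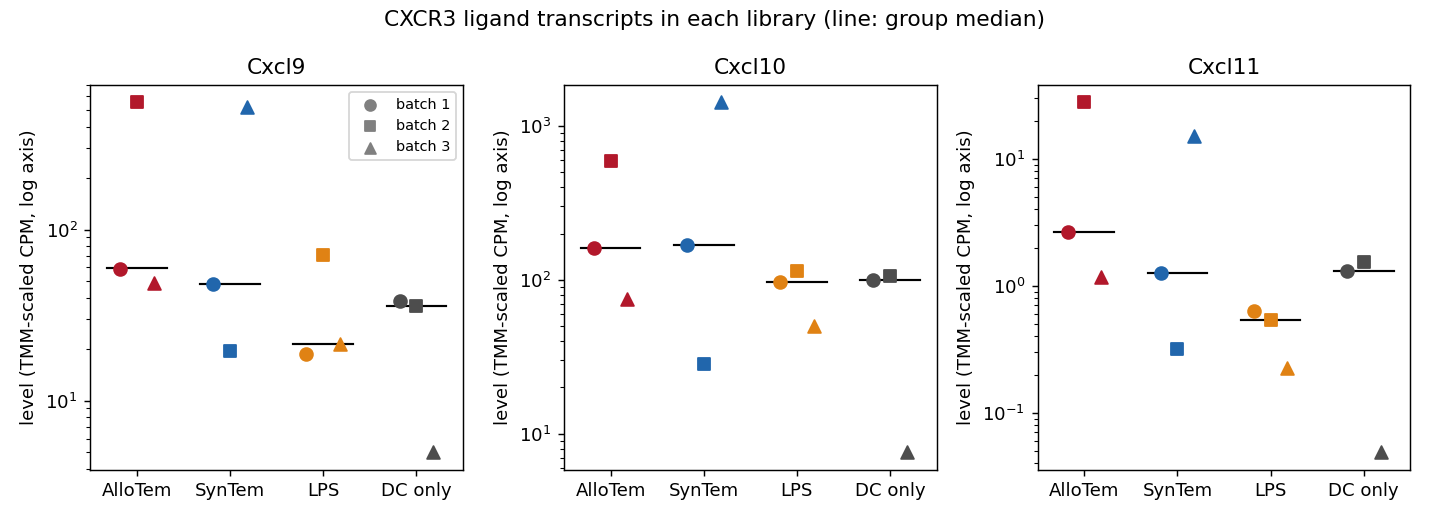
TMM-scaled CPM (log axis) of Cxcl9, Cxcl10 and Cxcl11 in each of the 12 libraries, by group, with marker shape for the deposited batch number and a line at the group median. AlloTem 2 and SynTem 3 lie above the other libraries for all 3 genes, and DC only 3 lies lowest.

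Within each group the libraries differed many-fold. For Cxcl10, the highest library exceeded the lowest 7.96-fold in AlloTem, 50.1-fold in SynTem, 2.28-fold in LPS and 13.9-fold in DC only. For Cxcl9 the same ratio was 11.4 in AlloTem, 26.6 in SynTem, 3.77 in LPS and 7.62 in DC only. The pooled standard deviation of log2 CPM within groups was 1.96 for Cxcl10 and 1.84 for Cxcl9, against a median of 0.19 over the 9692 named genes with a mean of at least 5 CPM, of which 0.34% varied more than Cxcl10 and 0.485% more than Cxcl9.

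Per kilobase of annotated exon, Cxcl10 was the more abundant of the members in all 12 libraries. Its level per kilobase was 3.66, 1.44 and 2.07 times that of Cxcl9 in the AlloTem libraries, 4.7, 1.95 and 3.68 times in the SynTem libraries, 6.91, 2.15 and 3.13 times in the LPS libraries, and 3.52, 3.97 and 2.04 times in the DC only libraries. The ratio was smallest in AlloTem 2, where Cxcl9 reached its highest level of 183 CPM per kilobase beside 264 for Cxcl10. In SynTem 3, Cxcl9 stood at a like 172 CPM per kilobase and Cxcl10 at 632.

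Against DCs cultured alone, both ligands had higher mean levels with either kind of T cell, and no difference passed the test. Cxcl9 averaged 220 ± 288 CPM in AlloTem libraries and 26.2 ± 18.4 CPM in DC only libraries (SD, n = 3 each), a log2 difference of 3.08 ± 1.4 (SE; 95% interval -0.02 to 6.17; adjusted p = 0.395 by edgeR's quasi-likelihood test with Benjamini-Hochberg adjustment over 14413 genes). The test called 253 of those genes (1.76%) in this comparison, and neither ligand was among them. With 1 library of these groups left out, it called 42 to 324 genes, fewest without DC only 2. In 9.35% of the genes tested, all AlloTem libraries lay above all DC only libraries, as they did for Cxcl9. Without AlloTem 2 the log2 difference of Cxcl9 was 1.04.

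Cxcl10 averaged 277 ± 279 CPM in AlloTem libraries and 71.0 ± 55.0 CPM in DC only libraries (SD, n = 3 each). Its log2 difference was 1.97 ± 1.3 (SE; 95% interval -0.93 to 4.86; edgeR adjusted p = 0.63), or 0.74 without AlloTem 2. The intervals of both ligands hold differences from none or a fall up to a rise of many-fold, so the size of a difference could not be resolved with this spread.

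Cxcl9 averaged 195 ± 280 CPM in SynTem libraries and 26.2 ± 18.4 CPM in DC only libraries (SD, n = 3 each), with a log2 difference of 2.9 ± 1.39 (SE; 95% interval -0.18 to 5.98; edgeR adjusted p = 0.626). Cxcl10 averaged 540 ± 768 CPM in SynTem libraries and 71.0 ± 55.0 CPM in DC only libraries (SD, n = 3 each), with a log2 difference of 2.93 ± 1.35 (SE; 95% interval -0.07 to 5.93; edgeR adjusted p = 0.608). These mean differences were carried by SynTem 3, without which the log2 differences were 0.36 for Cxcl9 and 0.47 for Cxcl10. Of the genes tested, 0.0902% were called in this comparison, neither ligand among them.

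Between the T cell cultures, which the study set against each other to ask how alloreactive memory T cells act on DCs, the ligands did not separate. The log2 difference of AlloTem over SynTem was 0.18 ± 1.28 for Cxcl9 (SE; 95% interval -2.67 to 3.02; edgeR adjusted p = 0.978). It was -0.96 ± 1.27 for Cxcl10 (SE; 95% interval -3.77 to 1.85; edgeR adjusted p = 0.861). The test called 0.167% of genes here, neither ligand among them. The direction turned with single libraries: without AlloTem 2 the log2 differences were -1.87 for Cxcl9 and -2.2 for Cxcl10, and without SynTem 3 they were 2.72 for Cxcl9 and 1.51 for Cxcl10. A fit with the batch number as a block gave -0.55 for Cxcl9 (edgeR adjusted p = 0.916), and it called 0.541% of genes.

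With LPS for 3 hours the mean levels of both ligands were somewhat higher than in DCs alone, and neither difference passed the test. Cxcl9 averaged 37.0 ± 29.4 CPM in LPS libraries and 26.2 ± 18.4 CPM in DC only libraries (SD, n = 3 each), a log2 difference of 0.5 ± 1.31 (SE; 95% interval -2.41 to 3.42; edgeR adjusted p = 0.999). Cxcl10 averaged 86.8 ± 33.0 CPM in LPS libraries and 71.0 ± 55.0 CPM in DC only libraries (SD, n = 3 each), a log2 difference of 0.29 ± 1.27 (SE; 95% interval -2.52 to 3.1; edgeR adjusted p = 0.999). The edgeR test called 0 genes (0%) between these groups, with 531 at an unadjusted p under 0.05, while DESeq2 called 10 and limma voom 0. Without DC only 3 the Cxcl10 log2 difference was -0.24 and that of Cxcl9 0.01.

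Set against LPS, AlloTem cultures had log2 differences of 2.57 ± 1.36 for Cxcl9 (SE; 95% interval -0.46 to 5.6; edgeR adjusted p = 0.915) and 1.67 ± 1.29 for Cxcl10 (SE; 95% interval -1.19 to 4.54; edgeR adjusted p = 1.0), where 0.451% of genes were called. Without AlloTem 2 these values were 0.54 for Cxcl9 and 0.45 for Cxcl10. SynTem cultures had log2 differences over LPS of 2.4 ± 1.36 for Cxcl9 (SE; 95% interval -0.61 to 5.41; edgeR adjusted p = 0.686) and 2.64 ± 1.34 for Cxcl10 (SE; 95% interval -0.33 to 5.6; edgeR adjusted p = 0.659), where 0.0486% of genes were called. Without SynTem 3 they were -0.15 for Cxcl9 and 0.17 for Cxcl10. Neither ligand was called in either comparison. With the batch number as a block, the share of genes called was 2.91% for AlloTem over DC only, 0.944% for AlloTem over LPS, 0.146% for SynTem over DC only and 0.194% for SynTem over LPS, again without either ligand. Comparisons that share a group share its 3 libraries.

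**Figure D2:**
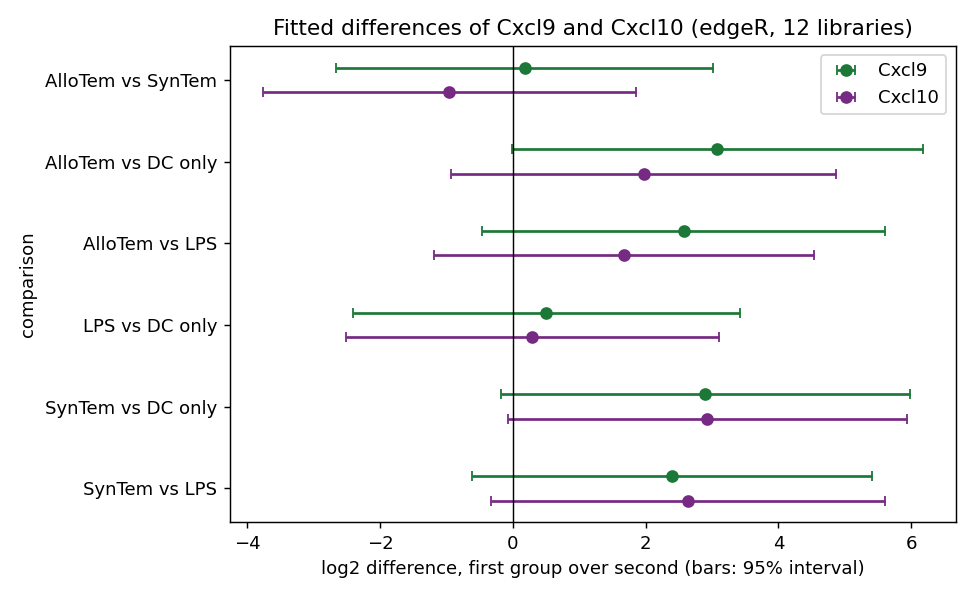
Fitted log2 difference (x axis, first group over second) of Cxcl9 and Cxcl10 in 6 comparisons (y axis) from the edgeR fit over 12 libraries, with bars for the 95% interval. Every interval includes 0, and the intervals nearest to leaving it out are Cxcl9 in AlloTem vs DC only (-0.02 to 6.17) and Cxcl10 in SynTem vs DC only (-0.07 to 5.93).

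A test of any difference among the 4 groups gave an edgeR adjusted p of 0.625 for Cxcl9 and 0.66 for Cxcl10, where 1.26% of genes were called. The deposited metadata give each library a batch number, 1 to 3, with 1 library of each group in each batch. A test of any difference among batches gave an edgeR adjusted p of 0.673 for Cxcl9 and 0.909 for Cxcl10, where 0% of genes were called, with 3949 at an unadjusted p under 0.05. That edgeR count was 2642 genes at the adjusted threshold without SynTem 2, 1083 without DC only 1 and 667 without DC only 2, and the ligands' adjusted p for batch then remained above 0.05.

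Over all genes tested, deviations from the group mean correlated best with the libraries of their own number in 10 of 12 libraries. SynTem 2 correlated best with number 3 (mean correlation 0.438, against -0.118 with number 2), and DC only 2 with number 1 (0.254, against -0.006 with number 2), which bears on the block values and on the batch 2 ratios that use these libraries.

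Within batches, the sign was the same in every batch only for AlloTem against DC only and against LPS. The log2 ratio of AlloTem to DC only in batches 1, 2 and 3 was 0.63, 3.94 and 3.15 for Cxcl9 and 0.69, 2.49 and 3.22 for Cxcl10 (0.5 CPM added to each level). The ratio of AlloTem to LPS was 1.63, 2.96 and 1.16 for Cxcl9 and 0.74, 2.38 and 0.58 for Cxcl10. These ratios were positive in 3 of 3 batches for both ligands, and ratios within a batch carry no test of their own.

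The ratio of AlloTem to SynTem was near 0 in batch 1, high in batch 2 and low in batch 3. It was 0.3, 4.8 and -3.4 for Cxcl9 and -0.05, 4.37 and -4.24 for Cxcl10 on the log2 scale. The ratio of SynTem to DC only was 0.33, -0.85 and 6.56 for Cxcl9 and 0.74, -1.87 and 7.46 for Cxcl10, with batch 2 on the other side of 0. The ratio of LPS to DC only was -1.0, 0.99 and 1.99 for Cxcl9 and -0.05, 0.11 and 2.64 for Cxcl10, highest in the batch of DC only 3. For SynTem over LPS it was 1.33, -1.84 and 4.56 for Cxcl9 and 0.79, -1.98 and 4.82 for Cxcl10.

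**Figure D3:**
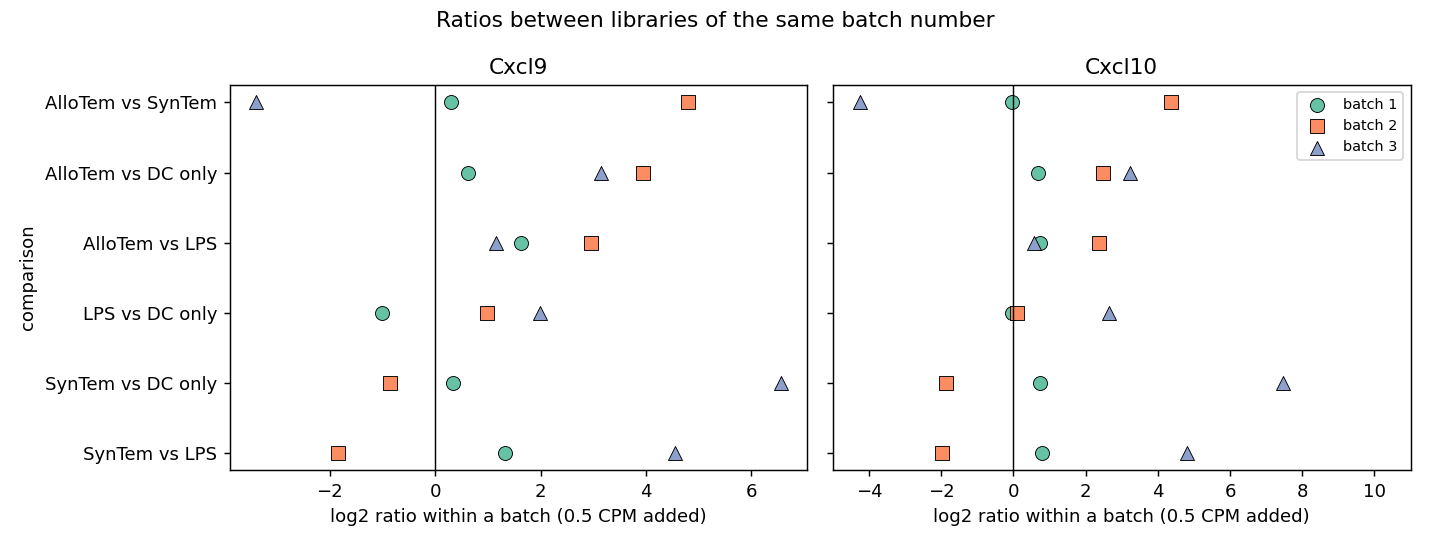
Log2 ratio between the libraries of one batch (x axis, 0.5 CPM added) for each of 6 comparisons (y axis), with 1 point per batch. For AlloTem vs SynTem the batches run from -3.4 to 4.8 for Cxcl9 and from -4.24 to 4.37 for Cxcl10, while all 3 batches lie above 0 for AlloTem vs DC only and AlloTem vs LPS.

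The libraries in which the ligands were highest or lowest also differed in other transcripts. The sorted cells carried the DC markers throughout (7 genes, such as Itgax, Flt3 and the class II genes), whose summed level ran from 10682 to 22776 CPM. SynTem 3 stood apart in neutrophil precursor genes: Mpo, a granule enzyme, reached 565 CPM there, against 14.5 to 73.5 CPM in the other 11 libraries. The summed level of all 8 neutrophil markers was 92.6 to 254 CPM in AlloTem, 66.8 to 947 CPM in SynTem with SynTem 3 highest, 92.1 to 272 CPM in LPS and 46.2 to 115 CPM in DC only libraries. Of the 947 CPM in SynTem 3, Mpo made up 565. The median log2 deviation of the 8 from the mean of the 12 libraries was 2.35 in SynTem 3. It was 1.9 in LPS 1, 1.58 in AlloTem 1 and 1.39 in SynTem 1. The 6 monocyte markers summed to 1271 to 2752 CPM in AlloTem, 1345 to 3570 CPM in SynTem, 1645 to 3094 CPM in LPS and 1608 to 2546 CPM in DC only libraries. Their sum in SynTem 3 (3570 CPM) lay near those of SynTem 1 (3136 CPM) and LPS 1 (3094 CPM). Their median log2 deviation from the mean of the 12 libraries was 0.54, 0.55 and 0.67 in the same order. Single members stood apart in SynTem 3, and were named after their values were seen. Fn1 reached 493 CPM there, against 31.0 to 152 CPM in the other 11 libraries, and Ly6c2 reached 689 CPM, against 110 to 519 CPM. AlloTem 2, the other library with high ligand levels, had 92.6 CPM of neutrophil markers and 31.2 CPM of Mpo. The 10 macrophage markers, such as the complement genes C1qa to C1qc, summed to 39.8 to 165.5 CPM in AlloTem, 35.22 to 179.7 CPM in SynTem, 46.71 to 120.0 CPM in LPS and 36.62 to 45.85 CPM in DC only libraries, where Marco was at 0 in all 3. All 8 of them that were tested had a positive log2 difference over DC only in AlloTem (median 1.6), SynTem (median 1.05) and LPS (median 1.53), and none was called. Their median deviation from the mean of the 12 libraries was highest in AlloTem 2 (1.57) and was 0.15 in SynTem 3, and 4 of 8 had a correlation over 0.5 with each ligand. The part of these cells in the ligand levels was not tested.

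T cell transcripts were present in the T cell cultures after the sort. The 18 T cell markers summed to 289, 175 and 147 CPM in AlloTem, 289, 673 and 538 CPM in SynTem, 174, 112 and 70.7 CPM in LPS, and 86.3, 101 and 65.98 CPM in DC only libraries, with none at 0 in a whole group. All 18 had a positive log2 difference in AlloTem and in SynTem over DC only, and 6 were called in each. SynTem 2, with the most T cell RNA, had the lowest ligand levels of its group, and SynTem 3, with the next most, had the highest. AlloTem 2, with the highest ligand levels of its group, was not the highest of it in T cell markers. Across libraries the correlation of the 18 markers with Cxcl9 ran from 0.27 to 0.52 (median 0.37). With Cxcl10 it ran from 0.2 to 0.53 (median 0.43). The part of T cell RNA in the ligand levels was not tested. The 8 NK cell markers summed to 944, 294 and 190 CPM in AlloTem and 733, 358 and 359 CPM in SynTem libraries. They summed to 948, 278 and 115 CPM in LPS and 442, 449 and 133 CPM in DC only libraries.

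Transcripts of the Y chromosome (4 genes, such as Ddx3y) were present in 5 libraries, namely all of batch 3 and SynTem 2, with a sum of 131 to 220 CPM, and at 10.3 CPM or less in the other 7. The low ligand levels of DC only 3 and SynTem 2 fell among these 5, as did the high ones of SynTem 3. With the Y-linked level as a covariate, the log2 difference of AlloTem over SynTem was -1.32 for Cxcl9 and -2.31 for Cxcl10 (edgeR adjusted p = 0.768 and 0.578), and neither ligand was called in any of the 6 comparisons.

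The third ligand, Cxcl11, varied with the members at a far lower level. The annotation lists it as a polymorphic pseudogene, since the C57BL/6 strain is known to carry an allele that gives no working protein. It stood at 2.66, 27.8 and 1.18 CPM in the AlloTem libraries, at 1.26, 0.317 and 15.2 CPM in the SynTem libraries, at 0.628, 0.534 and 0.224 CPM in the LPS libraries, and at 1.31, 1.54 and 0.049 CPM in the DC only libraries. As for the members, AlloTem 2 and SynTem 3 were highest and DC only 3 lowest, the last with a single read. Its log2 difference was 4.5 ± 1.68 for AlloTem over LPS, with no overlap between the groups (SE; edgeR adjusted p = 0.558), and 3.46 ± 1.56 for AlloTem over DC only (SE; edgeR adjusted p = 0.392). Without AlloTem 2 these log2 differences were 2.05 over LPS and 1.0 over DC only. In 5.52% of the genes tested all AlloTem libraries lay above all LPS libraries. Of its annotated exon bases 41.697% are shared with another gene, so its counts are uncertain.

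The receptor gene Cxcr3 stood at 4.94, 3.18 and 6.61 CPM in the AlloTem libraries, at 6.24, 24.4 and 14.6 CPM in the SynTem libraries, at 4.65, 4.16 and 8.79 CPM in the LPS libraries, and at 5.82, 5.14 and 13.5 CPM in the DC only libraries. SynTem 2 and 3, the libraries with the most T cell RNA, were the highest, and the part of T cell RNA in the receptor's level was not tested. The log2 difference of AlloTem over SynTem was -1.62 ± 0.54 (SE; edgeR adjusted p = 0.339). Dpp4, which encodes a surface peptidase that trims CXCR3 ligands, stood at 168 to 260 CPM in AlloTem, 157 to 230 CPM in SynTem, 206 to 299 CPM in LPS and 226 to 299 CPM in DC only libraries. It was not called in any of the 6 comparisons, and its range across libraries was small beside that of the ligands.

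Of the signals known to induce the ligands, interferon gamma RNA was scarce in the sorted cells. The sort came after culture, so Ifng RNA of cells that it removed was not measured. Ifng stood at 5.79, 1.54 and 0 CPM in AlloTem, 3.64, 1.46 and 1.13 CPM in SynTem, 3.46, 0.119 and 0 CPM in LPS, and 0.689, 0.971 and 0.049 CPM in DC only libraries. It was highest in the batch 1 library of each group except DC only, and not in the libraries with the highest ligand levels. In each group the summed NK cell markers were highest in the same library as Ifng. The part of NK cell RNA in the Ifng level was not tested. Ifnb1, the interferon beta gene, did not exceed 0.534 CPM in any library and was not tested.

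Socs1, a feedback inhibitor induced by interferon gamma signalling, rose in AlloTem against DC only. It stood at 91.0, 242 and 93.1 CPM in AlloTem, 32.9, 23.1 and 98.8 CPM in SynTem, 9.68, 7.78 and 3.75 CPM in LPS, and 12.5, 9.6 and 2.16 CPM in DC only libraries. All 6 libraries with T cells lay above the 6 without, and AlloTem 2 and SynTem 3 were highest in their groups, as for the ligands. How many of all genes separate in this way was not computed. For single pairs of groups, 9.35% of the genes tested lay higher without overlap in AlloTem over DC only and 7.42% in SynTem over DC only. For Socs1, the log2 difference of AlloTem over DC only was 4.14 ± 0.79 (SE; edgeR adjusted p = 0.0293; 0.0644 with the batch number as a block). The call was made in 7 of 16 alternatives, with adjusted p from 4.47e-06 to 0.14, and the log2 difference was 3.52 without AlloTem 2. For SynTem over DC only it was 2.68 ± 0.74 (SE; edgeR adjusted p = 0.272).

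Irf1, a transcription factor induced by interferon gamma, stood at 732, 1233 and 507 CPM in AlloTem, 843, 358 and 788 CPM in SynTem, 326, 190 and 207 CPM in LPS, and 339, 310 and 124 CPM in DC only libraries. The libraries with T cells lay above those without, a separation whose share over all genes was not computed. The log2 difference of Irf1 was 1.68 ± 0.47 for AlloTem over DC only (SE; edgeR adjusted p = 0.135) and 1.36 ± 0.47 for SynTem over DC only (SE; edgeR adjusted p = 0.407).

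Among 18 tested genes of the interferon gamma response (guanylate-binding proteins, immunity-related GTPases, immunoproteasome and antigen-processing genes), 17 had a positive log2 difference in AlloTem over DC only, with a median of 0.99. In SynTem over DC only 15 were positive, with a median of 1.6, and in LPS over DC only 8 were, with a median of -0.02. The median over all genes tested was 0 in each. Between the T cell cultures, 6 of 18 had a positive log2 difference of AlloTem over SynTem, with a median of -0.31, against -0.01 over all genes tested. Only Cd274, which encodes the checkpoint ligand PD-L1, was called, in AlloTem over DC only. It was named after its values were seen: it stood at 506, 573 and 156 CPM in AlloTem and 56.6, 58.9 and 30.5 CPM in DC only libraries, a log2 difference of 3.08 ± 0.62 (SE; edgeR adjusted p = 0.0359, from 9.62e-07 to 0.144 over 16 alternatives, 8 of which kept the call). Tap1, a peptide transporter, and Ciita, the class II transactivator, had the highest mean CPM of the list, with 382 to 905 and 247 to 455 CPM in AlloTem and 341 to 648 and 290 to 410 CPM in DC only libraries.

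The type I interferon response also varied between libraries. Its 23 genes, among them the antiviral genes Isg15, Ifit3 and Oas3, summed to 917, 1781 and 314 CPM in AlloTem, 1124, 354 and 958 CPM in SynTem, 966, 1759 and 326 CPM in LPS, and 1627, 1630 and 306 CPM in DC only libraries. The sum was low in AlloTem 3, SynTem 2, LPS 3 and DC only 3, which were 4 of the 5 libraries with Y-linked transcripts. The fifth, SynTem 3, was not low. AlloTem 2 and LPS 2 stood highest in this sum, with DC only 1 and 2 close below. Cxcl9 stood at 553 CPM in AlloTem 2, at 70.9 CPM in LPS 2, and at 38.1 and 35.5 CPM in DC only 1 and 2. Cxcl10 stood at 595, 114, 100.02 and 105 CPM in the same order. The part of type I interferon in the ligand levels was not tested. The median log2 difference was -0.15 in AlloTem over DC only and -0.49 in SynTem over DC only, with 9 and 5 of 23 positive, and 0 of 23 were called in any of the 6 comparisons. For SynTem over DC only the direction turned with the batch number as a block (15 of 23 positive, median 0.19), with the Y-linked covariate (21 of 23, median 1.31) and without DC only 2 and SynTem 2 (14 of 23, median 0.2).

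Of the NF-kB feedback genes and targets, 13 in number, all 13 had a positive log2 difference in AlloTem over DC only, with a median of 0.52, and in LPS over DC only, with a median of 0.65. In SynTem over DC only 1 of 13 was positive, with a median of -0.21, and this direction turned with the Y-linked covariate (9 of 13, median 0.16) and without DC only 2 and SynTem 2 (8 of 13, median 0.02). In AlloTem over SynTem all 13 were positive, with a median of 0.93. None of the list was called in these 4 comparisons, and with the batch number as a block 1 gene, Rel, was called in AlloTem over DC only. Nfkbia, which encodes an inhibitor of NF-kB, stood at 1410, 1085 and 1119 CPM in LPS and at 1027, 969 and 476 CPM in DC only libraries, where Cxcl10 had 96.9, 114 and 49.96 CPM in LPS and 100.02, 105 and 7.59 CPM in DC only libraries. In the libraries with the most Cxcl10, SynTem 3 and AlloTem 2, Nfkbia stood at 422 and 1078 CPM. In DC only 3, the library with the least, it stood at 476 CPM. The part of NF-kB in the ligand levels was not tested.

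**Figure D4:**
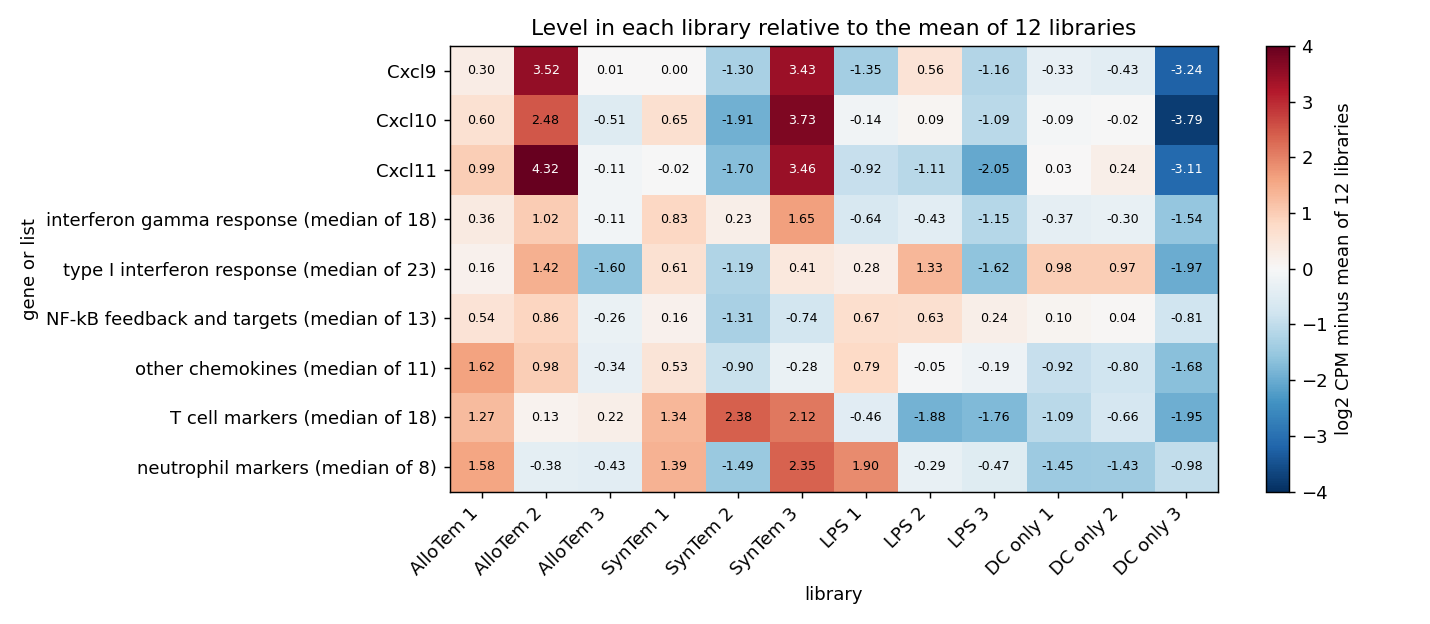
Log2 CPM minus the mean of the 12 libraries for Cxcl9, Cxcl10 and Cxcl11, and the median of that value over the tested genes of 6 lists (rows), in each library (columns). The interferon gamma response is highest in SynTem 3 (1.65) and AlloTem 2 (1.02) and lowest in DC only 3 (-1.54), as the ligands are. The NF-kB list is highest in AlloTem 2 (0.86), stands at -0.74 in SynTem 3 and -0.81 in DC only 3, and is lowest in SynTem 2 (-1.31).

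Of 11 other chemokine genes tested, Ccl17 was called between the T cell cultures and neither member was. Ccl17, a ligand of the receptor CCR4, stood at 72.7, 190 and 66.05 CPM in AlloTem libraries and at 0.52, 1.77 and 2.49 CPM in SynTem libraries, a log2 difference of 6.07 ± 0.72 (SE; edgeR adjusted p = 0.0126, lost without SynTem 2 at 0.102, without SynTem 2 and DC only 2 at 0.194, and with only the 6 libraries compared at 0.167). SynTem 3, with 1422 CPM of Cxcl10, had 2.49 CPM of Ccl17. Ccl4, another chemokine gene, was also called in AlloTem over DC only, with a log2 difference of 3.1 ± 0.61 (SE; edgeR adjusted p = 0.034, from 1.56e-06 to 0.143 over 16 alternatives, 7 of which kept the call), and was named after its values were seen. Ccl5, which encodes a T cell attractant, stood at 446, 86.3 and 23.1 CPM in AlloTem and 79.8, 73.7 and 23.3 CPM in DC only libraries and was highest in batch 1 in all 4 groups.

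Cxcl9 and Cxcl10 varied together from library to library. Across the 12 libraries their log2 CPM had a Pearson correlation of 0.943 and a Spearman correlation of 0.839 (permutation p = 0.00016 and 0.0014, two-sided, 100000 permutations). This was the only pair of measures tested in this way, so the p-values were not adjusted. The permutations moved values freely across groups and batches, so the p-values hold only if the 12 libraries are exchangeable, which the design does not ensure. Without SynTem 3 and DC only 3, the libraries farthest from the median of Cxcl10, the Pearson correlation was 0.878 and the Spearman correlation 0.733 (permutation p = 0.00454 and 0.0205, n = 10). After subtraction of the group means the Pearson correlation was 0.936, so the relation lay within groups. A batch holds 4 libraries, too few for a correlation of its own.

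**Figure D5:**
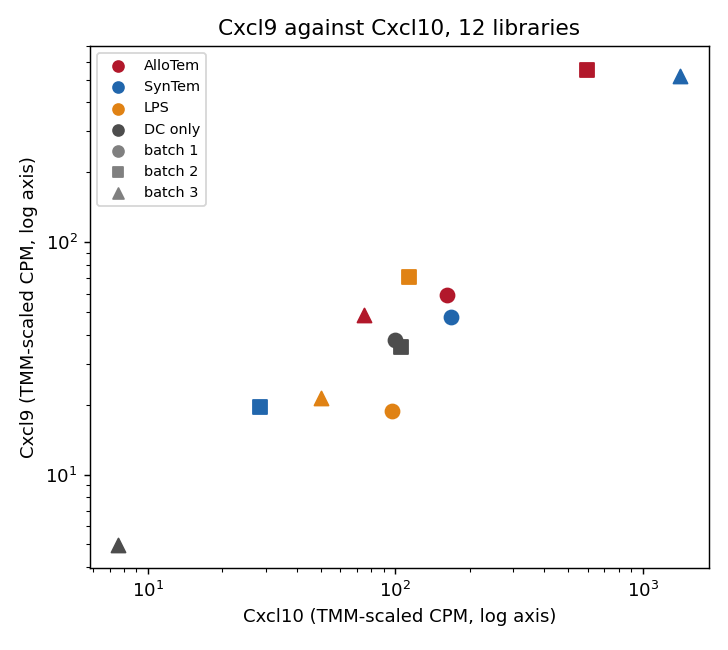
Cxcl9 (y axis) against Cxcl10 (x axis) in TMM-scaled CPM on log axes, with 1 point per library, colour for the group and marker shape for the batch. The points run along a single band from DC only 3 (5.0 and 7.59 CPM) to SynTem 3 (517 and 1422 CPM), with libraries of the same group far apart.

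Among 9691 other named genes with a mean of at least 5 CPM, Cxcl10 was the gene most like Cxcl9 over the 12 libraries, and Cxcl9 the gene most like Cxcl10. After it, the genes with the highest Pearson correlation with Cxcl9 were Ralgds (0.929), Serpina3f (0.923), Rnd1 (0.914) and Trio (0.901). For Cxcl10 they were Rnd1 (0.93), Vps29 (0.918), Fam241a (0.913) and Il1rn (0.885). Cxcl11, whose mean lay below 5 CPM, had a correlation of 0.944 with Cxcl9 and 0.92 with Cxcl10. All these values share the same libraries, and AlloTem 2, SynTem 3 and DC only 3 weigh heavily in each.

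Serpina3f, a serine protease inhibitor gene, stood at 10.6, 58.7 and 15.4 CPM in AlloTem, 8.4, 7.98 and 108 CPM in SynTem, 2.51, 4.16 and 3.19 CPM in LPS, and 8.01, 6.45 and 1.37 CPM in DC only libraries. Il1rn, which encodes the antagonist of the interleukin-1 receptor, stood at 41.8, 66.5 and 9.06 CPM in AlloTem, 16.9, 3.04 and 39.7 CPM in SynTem, 21.5, 23.9 and 9.3 CPM in LPS, and 9.89, 10.5 and 2.35 CPM in DC only libraries. Both were highest in AlloTem 2 or SynTem 3 and lowest in DC only 3. Vps29, a subunit of the retromer sorting complex, kept within 38.7 to 46.3 CPM, so a high correlation came with a small range.

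By list, the median Pearson correlation with Cxcl9 was 0.71 over the interferon gamma response, 0.55 over the type I interferon response, 0.32 over the NF-kB list and -0.01 over all genes tested. With Cxcl10 it was 0.68, 0.63, 0.36 and -0.02 in the same order. Of the interferon gamma response, 16 of 18 genes had a correlation over 0.5 with each ligand, and of the type I interferon response 17 of 23 with Cxcl9 and 19 of 23 with Cxcl10, against 7.12% of all genes tested for Cxcl9 and 7.5% for Cxcl10. Of the NF-kB list, 0 of 13 had one with Cxcl9 and 1 of 13 with Cxcl10. Over the 8 genes of the interferon gamma signal the median correlation was 0.38 with each ligand, and 3 of 8 exceeded 0.5 with each. Among them, the correlation with Cxcl9 was 0.8 for Socs1, 0.774 for Irf1 and 0.283 for Ifng. For the receptor genes Ifngr1 and Ifngr2 it was -0.619 and -0.197. With Cxcl10 the correlation was 0.734 for Socs1, 0.786 for Irf1, 0.448 for Ifng, -0.417 for Ifngr1 and -0.098 for Ifngr2.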

How the data were processed

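The authors deposited raw counts per Ensembl gene, with no normalization, for 12 libraries whose totals ran from 13903574 to 21861156, and a table of batch numbers. Per the labels' protocols, RNA was DNase-treated, made into TruSeq libraries and read on a NextSeq with single-end reads. Per the submitters' processing notes the build was mm10. No aligner, counter, strand setting or annotation release is given in the sources used here. Symbols came from GENCODE (GRCm38) for 52028 of 57009 identifiers. The other 4981 held 0.763% of counts.

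The edgeR filter filterByExpr, at a minimum count of 10 and a minimum total of 15, kept 14413 genes. Counts were scaled by TMM and fitted in edgeR 4.0.16 (R 4.3.3) with 1 mean per group and robust quasi-likelihood tests. Benjamini-Hochberg adjustment ran over these 14413 genes in each comparison, and genes were called at an adjusted p under 0.05. A standard error is the log2 difference divided by the square root of F. Log2 CPM used a prior count of 2. The code was tested on simulated counts. DESeq2 1.42.0, limma voom (limma 3.58.1), other scalings and filters, the batch block, a Y-linked covariate, and leaving libraries out were alternatives. Numbers equal the deposited batch numbers in 12 of 12 libraries, so the block uses them as pairs, although SynTem 2 and DC only 2 did not correlate best with their own number. Deviations from group means correlated with a median of 0.247 over 18 pairs of the same number and -0.2 over 36 other pairs.

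Members and lists were chosen with earlier results of these data known. Named genes were a set list (of which 1 is not reported here), the 5 most correlated with each member, and the 2 of highest mean CPM per pathway list. Mpo, Rel and others said so in the text were named after their values were seen.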

Additional observations from a re-analysis of the deposited data

How the results depend on the processing

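Neither ligand was called in any of the 192 alternative tests (2 ligands, 6 comparisons, 16 alternatives each), whose adjusted p ran from 0.201 to 1.0. Many of these tests share a fit. For AlloTem over SynTem, Cxcl9 turned to -0.55 with the replicate block, -1.32 with the Y-linked covariate and -0.36 without DC only 2 and SynTem 2, and Cxcl10 turned to 0.03 in limma voom. With each library left out in turn, that log2 difference ran from -1.87 to 2.72 for Cxcl9, from -2.2 to 1.51 for Cxcl10 and from -1.56 to 3.76 for Cxcl11, which stood at -1.45 with the Y-linked covariate. Left out in turn likewise, LPS over DC only ran from -0.38 to 0.87 for Cxcl9 and -0.24 to 0.69 for Cxcl10, SynTem over LPS from -0.15 to 3.28 for Cxcl9, and SynTem over DC only from -0.29 to 3.11 for Cxcl11. The median of the type I interferon response changed sign in 5 of 16 alternatives for AlloTem over DC only, and that of the interferon gamma response in 0 of 16.

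Counts of called genes moved more. For AlloTem over SynTem they were 41 with no filter, 318 in DESeq2, 0 with only the 6 libraries compared, 78 with the replicate block, 39 with the Y-linked covariate and 2 without DC only 2 and SynTem 2. In the same order, without the count for no filter, they were 676, 96, 420, 598 and 16 for AlloTem over DC only and 288, 9, 136, 188 and 25 for AlloTem over LPS. For LPS over DC only DESeq2 called 10 and the fit without DC only 2 and SynTem 2 called 1. For SynTem over DC only the counts were 33 with no filter, 254 in DESeq2, 2 in limma voom, 1 with the 6 libraries, 21 with the block, 46 with the Y-linked covariate and 1 without the pair. For SynTem over LPS they were 11 with upper quartile factors, 16 with no filter, 11 with the filter at a mean of 5 CPM, 198 in DESeq2, 1 in limma voom, 0 with the 6 libraries, 28 with the block, 39 with the Y-linked covariate and 0 without the pair. The group term was called for 116 genes with the filter at 5 CPM, 299 with the block and 27 without the pair, and the batch term for 179 with no filter and 3113 without the pair. With each library left out, the counts ran from 3 to 46 for AlloTem over SynTem, 42 to 324 for AlloTem over DC only, 11 to 50 for AlloTem over LPS, 0 to 1 for LPS over DC only, 0 to 52 for SynTem over DC only, 0 to 33 for SynTem over LPS, 69 to 209 for the group term and 0 to 2642 for the batch term, highest without SynTem 2. The causes were not tested.

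With 3 libraries a group and this spread, the 95% intervals of both ligands span several log2 units.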
